A study of Homo sapiens with 6 samples.

Results

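The genes of polyamine metabolism were followed in the human gastric cancer line YCC3 after silencing of CTNNB1, the gene of beta-catenin. Members were the 10 genes ODC1, AMD1, SRM, SMS, SAT1, SMOX, PAOX, OAZ1, OAZ2 and AZIN1, each taken from the array row whose only annotated symbol is that gene. All 10 were measured, each by 1 row, out of 18417 genes with such a row. The groups were YCC3 cells given CTNNB1 siRNA (3 arrays) and YCC3 cells given non-targeting control siRNA (3 arrays). Both were transfected in 6-well plates in medium with serum, and total RNA was taken 48 hours later. An siRNA is a small duplex RNA that guides cleavage of the mRNA it pairs with. The labels name Dharmacon as the supplier and give neither the siRNA sequences nor their number, and the groups rest on 1 cell line. They call the samples biological replicates without saying whether these were separate cultures, so p-values cover the spread among these 6 samples alone, which may be technical.

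Polyamines (putrescine, spermidine and spermine) are small positively charged molecules that bind nucleic acids and are needed for translation and growth, and proliferating tumour cells make them in large amounts. Ornithine decarboxylase, encoded by ODC1, makes putrescine from ornithine. SRM and SMS then add aminopropyl groups supplied by the AMD1 enzyme. SAT1, SMOX and PAOX turn spermine and spermidine back, and antizymes (OAZ1, OAZ2) send ornithine decarboxylase to the proteasome unless the antizyme inhibitor (AZIN1) captures them. ODC1 is a classic transcriptional target of MYC, which binds the E-box CACGTG, and MYC is itself a known Wnt target gene in colon epithelium.

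The promoter windows of the synthesis genes whose mean signal was lower with CTNNB1 siRNA are shown because MYC is known to bind E-boxes. Each runs from 250 bases before to 50 bases after a transcript start in RefSeq (GRCh38.p14), is written 5′ to 3′ on the gene's strand, and has CACGTG in capitals. The ODC1 window shown, the only window of ODC1 with an E-box, lies at chr2:10447963-10448262 on the minus strand. The window of SRM lies at chr1:11059969-11060268 on the minus strand, and a window of AMD1 at chr6:110874535-110874834 on the plus strand.
ODC1: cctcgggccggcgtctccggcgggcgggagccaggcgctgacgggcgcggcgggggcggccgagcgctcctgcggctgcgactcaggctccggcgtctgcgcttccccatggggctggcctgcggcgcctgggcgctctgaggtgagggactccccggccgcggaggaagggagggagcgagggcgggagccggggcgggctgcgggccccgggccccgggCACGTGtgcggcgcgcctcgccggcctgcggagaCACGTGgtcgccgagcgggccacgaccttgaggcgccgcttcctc
SRM: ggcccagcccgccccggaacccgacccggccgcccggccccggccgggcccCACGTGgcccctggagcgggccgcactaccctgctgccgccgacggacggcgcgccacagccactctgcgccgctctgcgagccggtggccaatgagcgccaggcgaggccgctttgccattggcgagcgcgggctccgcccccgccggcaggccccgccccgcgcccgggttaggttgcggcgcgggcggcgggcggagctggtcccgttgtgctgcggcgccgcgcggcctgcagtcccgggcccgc
AMD1: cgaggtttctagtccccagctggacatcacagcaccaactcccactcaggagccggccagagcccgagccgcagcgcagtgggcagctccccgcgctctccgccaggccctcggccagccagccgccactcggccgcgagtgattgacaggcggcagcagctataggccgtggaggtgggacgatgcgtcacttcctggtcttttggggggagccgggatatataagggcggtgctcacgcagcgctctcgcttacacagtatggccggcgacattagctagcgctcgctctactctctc
With the start counted as 0, the E-boxes of ODC1 begin at -29 and 5, and that of SRM begins at -199. The start used for ODC1 is its downstream start, that of the window shown.

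RefSeq windows of 7 of the 10 members were searched, 10 windows in all. Windows of members on chromosome 8, where AZIN1 lies, were left out of the search, and none was found for PAOX or SMOX. These 3 members are named only. ODC1 has another window, at its upstream start, and AMD1 has 3 windows in all, 1 of them at a start farther upstream (chr6:110814367-110814666) and 1 shifted by 1 base from the window shown. None of these holds the E-box. The E-box letters read the same on both strands and occurred in 7.26% of 35116 windows of the same length. Of the 10 member windows searched 2 held it, those shown for ODC1 and SRM. The TCF/LEF motif CTTTGAT, searched on both strands and sharing no overlap with CACGTG, was in 2.62% of all windows. It was in none of the 10 member windows searched. Chromosome 8 was not left out of the counts over all windows. A match of letters is not a binding site.

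The silenced gene itself was lower in the CTNNB1 siRNA arrays. CTNNB1 had log2 signals of 10.94, 11.06 and 11.20 with CTNNB1 siRNA, against 11.80, 11.81 and 11.90 with control siRNA. Over all 18417 genes 382 rose and 488 fell at a limma adjusted p under 0.05, the threshold used throughout. Signals are the submitters' log2 RMA values, with a median per array of 5.88 to 5.95. Of 8 epithelial markers 7 were measured, with mean signals of 8.98 to 13.57. CLDN4 and ELF3, named after their values were seen, rose. The other 5 did not pass, and 1 of them, KRT18, had a negative change (-0.29). None of 7 leukocyte markers or 8 stromal markers passed. Their mean signals per array were 4.45 to 4.61 with CTNNB1 siRNA and 4.35 to 4.50 with control siRNA for leukocytes, and 4.91 to 5.00 with CTNNB1 siRNA and 4.77 to 4.92 with control siRNA for stroma. All 19 measured interferon-stimulated genes rose, with mean signals per array of 9.56 to 9.70 with CTNNB1 siRNA and 6.90 to 7.02 with control siRNA. The part of this response in the values below was not tested.

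Of the polyamine genes 1, ODC1, passed the test. It fell, as did 2.65% of all genes, while no member rose, where 2.07% of all genes did. The other 9 members did not pass. Their changes ran from -0.38 for AMD1 to 0.34 for SAT1, and the median change of all 10 was -0.16, against 0.0056 over all genes. The groups did not overlap for 5 members with lower signal under CTNNB1 siRNA (ODC1, AMD1, SMOX, OAZ1 and AZIN1), where 15.2% of all genes are so placed. The same held for SAT1 with higher signal, where 10.8% of all genes are so placed.

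**Figure D1:**
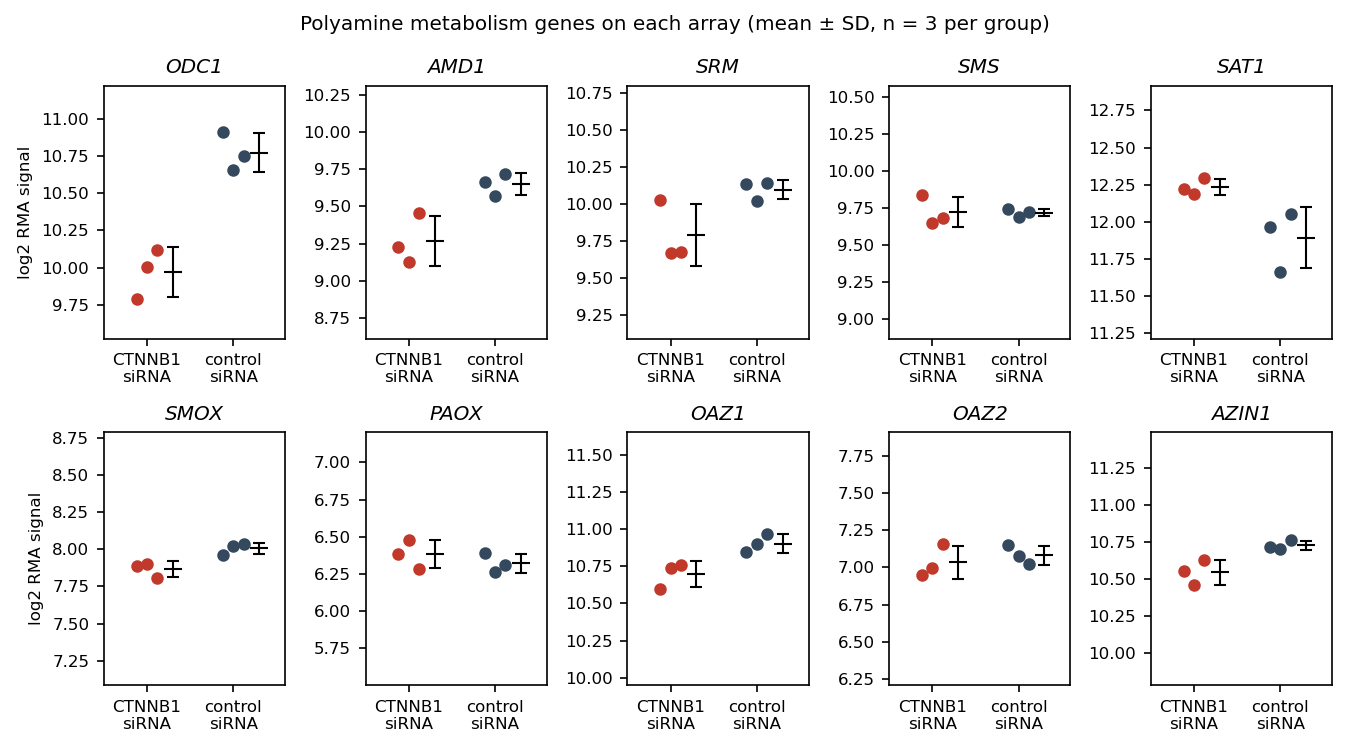
Log2 RMA signal (vertical axis, each panel spanning the same range of log2 units) of the 10 polyamine metabolism genes on each array, with red points for CTNNB1 siRNA and dark points for control siRNA, in order of replicate, and bars for mean ± SD (n = 3). ODC1 shows the widest gap between the groups, with all CTNNB1 siRNA arrays at or under 10.12 and all control arrays at or above 10.65.

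ODC1, the gene of the first and highly regulated enzyme of polyamine synthesis, fell. Its log2 signals were 9.79, 10.01 and 10.12 with CTNNB1 siRNA, against 10.91, 10.65 and 10.75 with control siRNA. Every CTNNB1 siRNA array was thus below every control array. The group means were 9.97 ± 0.17 with CTNNB1 siRNA and 10.77 ± 0.13 with control siRNA (SD, n = 3 each), and the log2 change was -0.80 ± 0.12 (SE; limma, adjusted p = 0.00482). Its signal was 42.7% lower (95% confidence interval, 31.3% to 52.2%). Among all genes it was the 25th largest fall, beside 41.4% less signal for CTNNB1 itself. With any 1 array left out ODC1 still passed, with log2 changes of -0.88 to -0.71 and limma adjusted p-values of 0.00823 to 0.0312. It missed the threshold in a per-gene test without moderation of the variance (adjusted p = 0.104). In bulk RNA, fewer cells with a transcript and less of it per cell cannot be told apart.

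MYC, the known activator of ODC1, fell on the same arrays. Its log2 signals were 9.86, 9.68 and 9.75 with CTNNB1 siRNA, against 10.38, 10.35 and 10.40 with control siRNA. The log2 change was -0.61 ± 0.09 (SE; limma, adjusted p = 0.00644), and the groups did not overlap. Whether the changes of MYC and ODC1 are linked was not tested.

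The other synthesis genes did not pass the test. AMD1 encodes S-adenosylmethionine decarboxylase, which makes the aminopropyl donor. Its log2 signals were 9.23, 9.13 and 9.45 with CTNNB1 siRNA, against 9.66, 9.57 and 9.72 with control siRNA. The groups did not overlap, and the log2 change was -0.38 ± 0.11 (SE), with a 95% interval of -0.63 to -0.14 and a limma adjusted p of 0.0809. AMD1 was called without CTNNB1 siRNA replicate 3, the highest of its group (adjusted p = 0.0444), and not without any other single array, where the limma adjusted p reached 0.232. It was also called when the dimmest 25% or 50% of genes were left out (limma adjusted p = 0.0431 and 0.0178). The same held with a trended and robust variance (adjusted p = 0.0219). Over all genes 927 of 13812, 1216 of 9208 and 1036 of 18417 fell in these settings, against 488 of 18417 in the main test.

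SRM, spermidine synthase, had log2 signals of 10.03, 9.67 and 9.68 with CTNNB1 siRNA, against 10.13, 10.02 and 10.14 with control siRNA. CTNNB1 siRNA replicate 1 lay just above the lowest control array, so the groups overlapped. The log2 change was -0.31 ± 0.12 (SE), with a 95% interval of -0.57 to -0.04 and a limma adjusted p of 0.175. SMS, spermine synthase, read 9.84, 9.65 and 9.68 with CTNNB1 siRNA, against 9.74, 9.69 and 9.72 with control siRNA. These values interleave, and the log2 change was 0.0038 ± 0.096 (SE), with an interval of -0.21 to 0.22, and its sign was negative without CTNNB1 siRNA replicate 1 (-0.05) or control replicate 2 and after median centring. The 95% interval of ODC1 ran from -1.06 to -0.54, and the difference between the changes of both genes was not tested.

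Among the catabolic genes SAT1 lay higher and none was called. SAT1 encodes spermidine/spermine acetyltransferase, which marks polyamines for export or oxidation and limits the rate of their breakdown. Its log2 signals were 12.22, 12.19 and 12.29 with CTNNB1 siRNA, against 11.96, 11.66 and 12.05 with control siRNA. Every CTNNB1 siRNA array was above every control array, and control replicate 2 was the lowest of all. The log2 change was 0.34 ± 0.12 (SE), with a 95% interval of 0.08 to 0.60 and a limma adjusted p of 0.133. Without control replicate 2 the change was 0.23 (adjusted p = 0.297). SAT1 was called in limma when the dimmest 50% of genes were left out (adjusted p = 0.0376). The same held with a trended and robust variance (adjusted p = 0.0326). Over all genes 645 of 9208 and 586 of 18417 rose in these settings, against 382 of 18417 in the main test.

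The oxidases showed smaller differences. SMOX, spermine oxidase, read 7.89, 7.90 and 7.80 with CTNNB1 siRNA, against 7.96, 8.03 and 8.03 with control siRNA. The groups did not overlap, but the gap was narrow, and the log2 change was -0.14 ± 0.09 (SE; limma, adjusted p = 0.437). PAOX, the peroxisomal oxidase of acetylated polyamines, read 6.38, 6.48 and 6.29 with CTNNB1 siRNA, against 6.39, 6.26 and 6.31 with control siRNA. Its values interleaved, and the fitted change was 0.06 ± 0.10 log2 units (SE), with a limma adjusted p of 0.773.

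The antizyme system, which sets how long ornithine decarboxylase lasts, held no called gene, and its 3 changes were negative, as were 48.8% of those of all genes. OAZ1, the main antizyme, made by a ribosomal frameshift when polyamines are plentiful, read 10.60, 10.74 and 10.76 with CTNNB1 siRNA, against 10.84, 10.90 and 10.97 with control siRNA. The groups did not overlap, and the log2 change was -0.20 ± 0.10 (SE; limma, adjusted p = 0.269). AZIN1, an ornithine decarboxylase homologue without enzyme activity that binds antizyme, read 10.55, 10.46 and 10.63 with CTNNB1 siRNA, against 10.72, 10.70 and 10.76 with control siRNA. Its groups did not overlap either, and the log2 change was -0.18 ± 0.09 (SE; limma, adjusted p = 0.322). OAZ2, a second antizyme, read 6.95, 6.99 and 7.16 with CTNNB1 siRNA, against 7.15, 7.07 and 7.02 with control siRNA. Here the groups overlapped, and the log2 change was -0.05 ± 0.10 (SE; limma, adjusted p = 0.831).

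**Figure D2:**
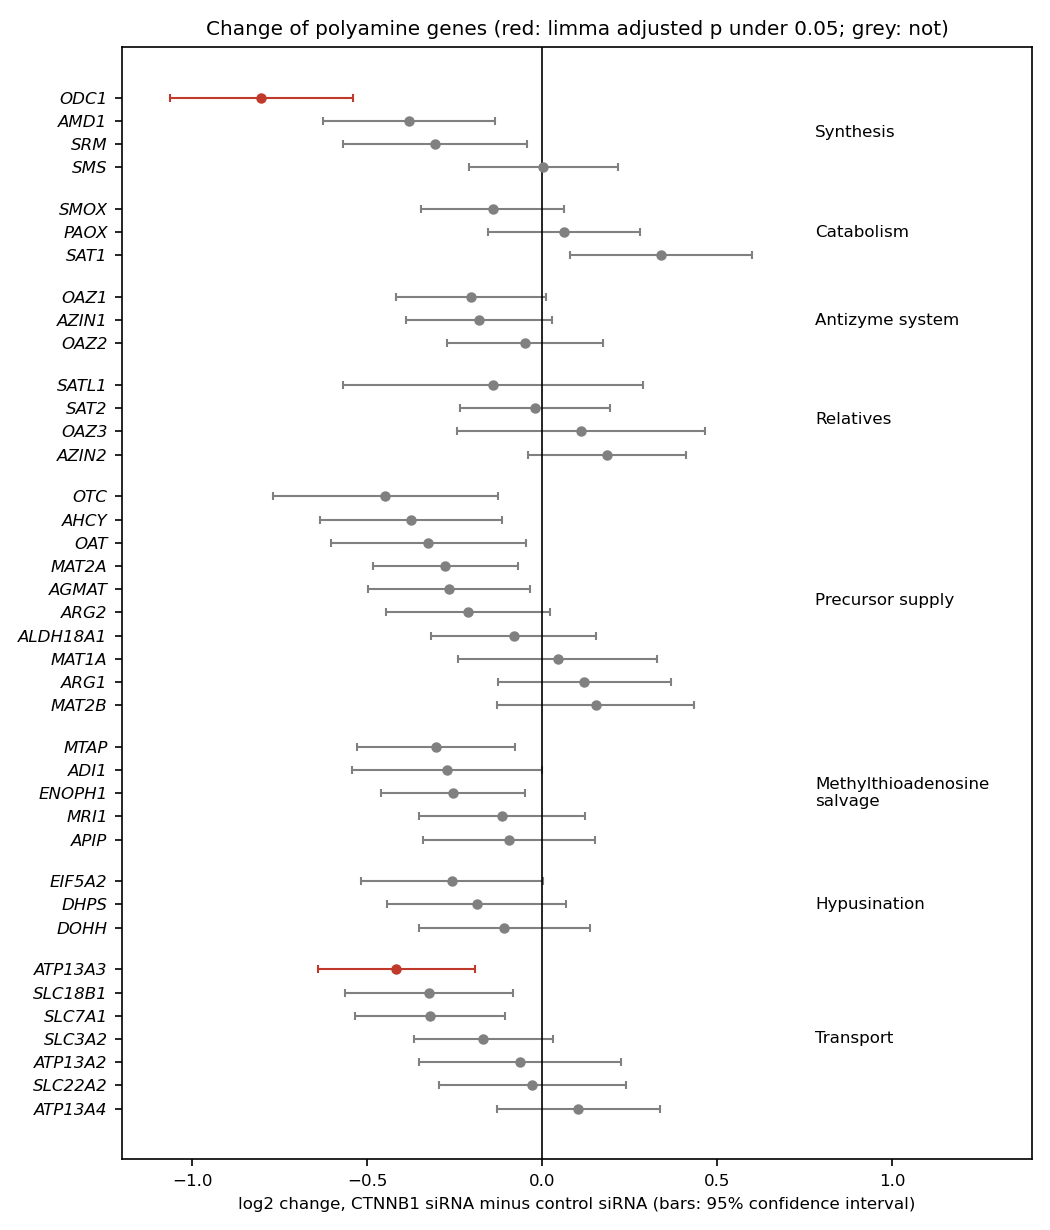
Log2 change (horizontal axis, CTNNB1 siRNA minus control siRNA) with 95% confidence intervals for the 10 polyamine metabolism genes (upper 3 blocks) and 29 related pathway genes (lower 5 blocks). ODC1 (-0.80) and ATP13A3 (-0.42) passed the limma threshold and are red, and among the other members the intervals of AMD1, SRM and SAT1 do not span 0 and those of SMS, SMOX, PAOX, OAZ1, OAZ2 and AZIN1 do.

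Genes around the pathway were read from lists of relatives, precursor supply, methylthioadenosine salvage, hypusination and transport. Of 32 listed genes 29 were measured. Of these 1 fell, none rose and 28 did not pass, where 2.65% of all genes fell and 2.07% rose. Of the 29 changes 23 were negative. Of all genes tested 48.8% had a negative change, and 62.4% of the brightest 10% did. The median change of the related genes was -0.17. The groups did not overlap for 13 of the 29 with lower signal under CTNNB1 siRNA, where 15.2% of all genes are so placed. The same held for none with higher signal, where 10.8% of all genes are so placed.

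The called gene was ATP13A3, a membrane pump that brings polyamines into the cytosol. Its log2 signals were 10.01, 9.93 and 10.11 with CTNNB1 siRNA, against 10.54, 10.40 and 10.35 with control siRNA. The groups did not overlap, and the log2 change was -0.42 ± 0.10 (SE; limma, adjusted p = 0.0462). The call ended with any 1 array left out, with limma adjusted p-values of 0.0509 to 0.194, and also after cyclic loess scaling (0.0864) or quantile normalization (0.0657). Among the 7 measured transport genes the next were SLC7A1, a transporter of arginine and ornithine, at -0.32 ± 0.10 (SE; limma, adjusted p = 0.0885), and SLC18B1, a vesicular polyamine transporter, at -0.32 ± 0.11 (adjusted p = 0.122).

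None of the 10 precursor supply genes passed, and 7 of their changes were negative, as were 48.8% of those of all genes. Their median change was -0.24. AHCY, which clears S-adenosylhomocysteine in the methionine cycle, had a log2 difference of -0.37 ± 0.12 (SE; limma, adjusted p = 0.102). MAT2A, which makes S-adenosylmethionine, the substrate of the AMD1 enzyme, had -0.28 ± 0.09 (adjusted p = 0.128). OTC, an ornithine-using enzyme of the urea cycle in liver, had -0.45 ± 0.14 (adjusted p = 0.111), at signals below the array medians that were not shown to be above background.

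Methylthioadenosine is the by-product of SRM and SMS. All 5 genes of its salvage had negative changes without passing, with a median of -0.26, where 48.8% of all genes had a negative change. MTAP, its phosphorylase, had a log2 difference of -0.30 ± 0.10 (SE; limma, adjusted p = 0.126), ENOPH1 one of -0.26 ± 0.09 (adjusted p = 0.152) and ADI1, a dioxygenase of the same route, one of -0.27 ± 0.12 (adjusted p = 0.246). Hypusination attaches a spermidine-derived residue to the translation factor eIF5A. DHPS, its first enzyme, had a log2 difference of -0.19 ± 0.12, DOHH, its second enzyme, one of -0.11 ± 0.11 and EIF5A2, a paralogue of the substrate, one of -0.26 ± 0.12 (SE; limma, adjusted p between 0.249 and 0.642). EIF5A has no row of its own here. The 3 rows it shares with EIF5AL1 did not pass, with log2 changes of -0.08 to -0.06, SE of 0.128 to 0.134 and adjusted p of 0.817 to 0.867 in a limma fit over every row.

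Of the 4 relatives of the members none passed. AZIN2, a second antizyme inhibitor, had a log2 difference of 0.19 ± 0.10 (SE; limma, adjusted p = 0.351), OAZ3, the testis antizyme, 0.11 ± 0.16, and SATL1, an acetyltransferase-like gene, -0.14 ± 0.19. The sign turned for OAZ3 without control replicate 2 (-0.06) and for SATL1 without control replicate 3 (0.09). The signals of all 3 were below the array medians and not shown to be above background.

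Negative changes were more frequent among bright rows. Of the 10 members 7 were among the brightest 10% of gene rows, as were 7 of the 29 related genes. The median change of those 1842 bright genes was -0.07 as deposited and 0.0066 after cyclic loess scaling, which removes trends with brightness, and 6.51% of them fell. After that scaling the median change was -0.09 for the 10 members and -0.14 for the related genes, against -0.16 and -0.17 as deposited. The part of brightness in these values was not tested. ODC1 passed there too, and its changes over all 18 alternative settings ran from -0.88 to -0.71.

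**Figure D3:**
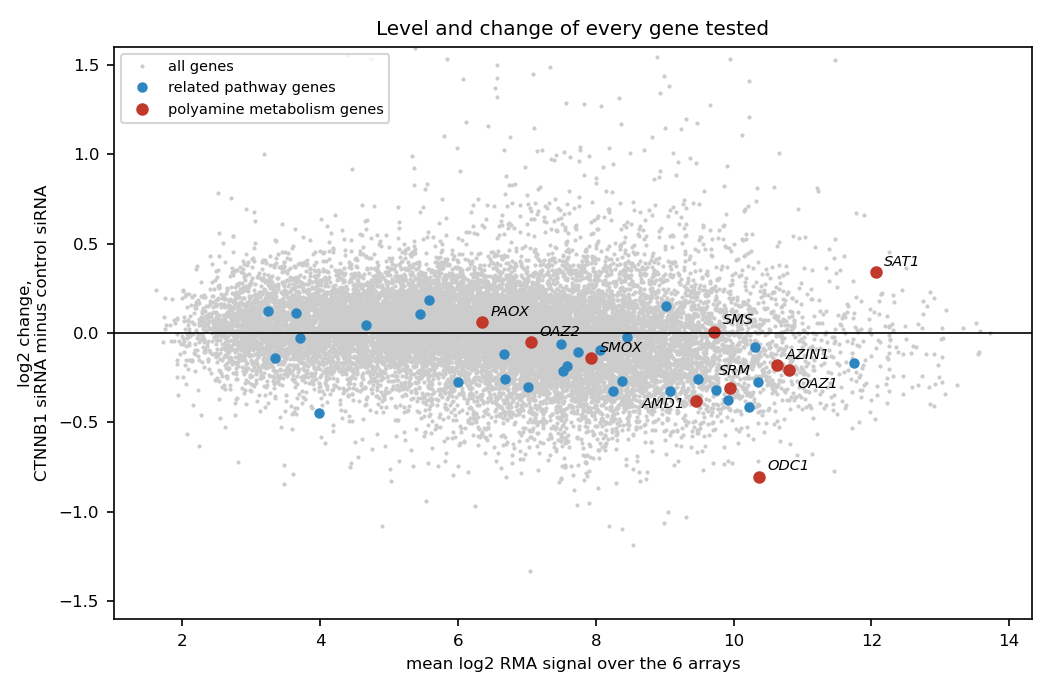
Log2 change (vertical axis, CTNNB1 siRNA minus control siRNA) against mean log2 RMA signal over the 6 arrays (horizontal axis) for all 18417 genes in grey, related pathway genes in blue and polyamine metabolism genes in red. Beyond the vertical axis, at 1.6 log2 units, lie 37 genes; ODC1 sits at the lower edge of the cloud and SAT1 above 0 at the bright end.

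The genes whose profiles over the 6 arrays were most like those of ODC1 and AMD1, the members with the smallest p, were found by the root mean square difference after each profile was centred on its own mean. Nearest to ODC1 were GEMIN5, an snRNA-binding protein (difference 0.0617 log2 units), HEATR1, a nucleolar protein of ribosome assembly (0.0637), and SBNO1 (0.0716). All 3 fell, with log2 changes of -0.88 ± 0.11 for GEMIN5, -0.78 ± 0.11 for HEATR1 and -0.78 ± 0.13 for SBNO1 (SE; limma, adjusted p between 0.00149 and 0.0102). Nearest to AMD1 were GFM1, a mitochondrial elongation factor (0.0227), QRSL1, a mitochondrial amidotransferase subunit (0.0244), and CSE1L, a nuclear export receptor (0.0246). None of these passed, with log2 changes of -0.40 ± 0.11, -0.39 ± 0.11 and -0.37 ± 0.11 (SE; limma, adjusted p between 0.0640 and 0.0904). A likeness over 6 arrays in 2 groups rests mostly on the difference between the groups. The changes and calls of these genes thus follow largely from how they were picked and are no separate result.

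**Figure D4:**
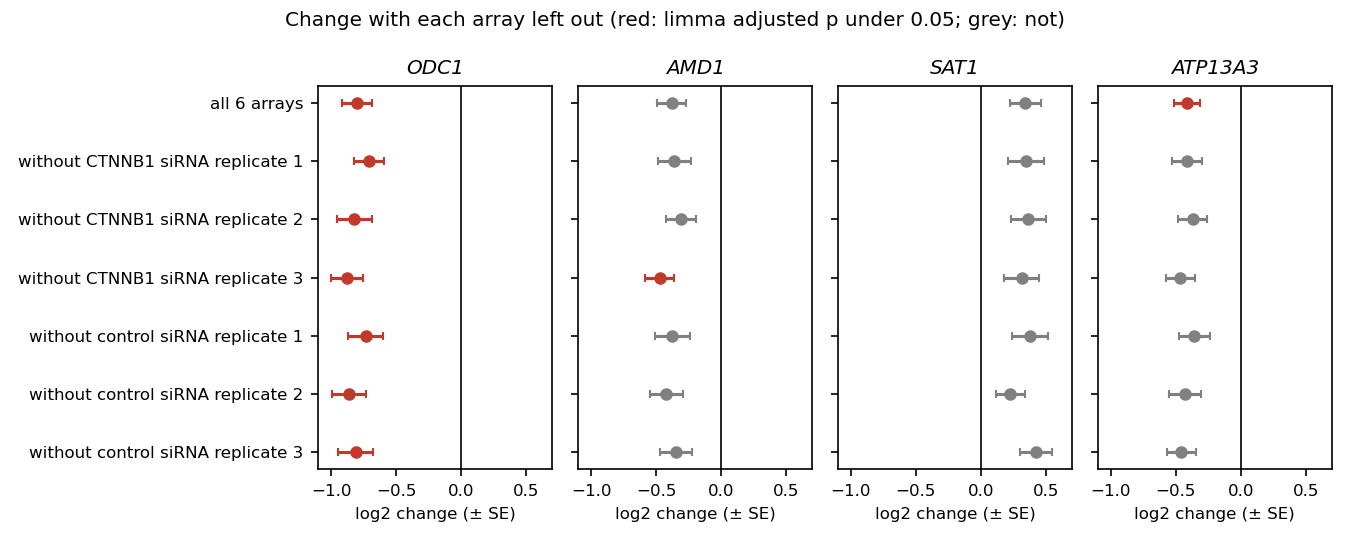
Log2 change ± SE (horizontal axis, CTNNB1 siRNA minus control siRNA) of ODC1, AMD1, SAT1 and ATP13A3 with all 6 arrays and with each array left out in turn, in red where the limma adjusted p was under 0.05. ODC1 is red in every line, AMD1 only without CTNNB1 siRNA replicate 3, SAT1 in none and ATP13A3 only with all 6 arrays.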

How the data were processed

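RNA from 6 samples of an established cell line was measured on Affymetrix gene arrays. The values are log2 signals deposited by the authors, made with RMA in Affymetrix Expression Console 1.1, per the submitters' processing notes. That the scale is log2 follows from their range (0.789 to 14.5). The genome build the authors used is not given in the sources used here. Rows were named from the platform's annotation in GEO, which can be old.

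Of 33297 rows, 19460 had 1 gene symbol, and the brightest row of each gene gave 18417 genes. CTNNB1 siRNA was compared with control siRNA in limma 3.58.1 (R 4.3.3, lmFit and eBayes, two-sided), with p-values adjusted by Benjamini-Hochberg across all genes, unfiltered. The fit was tested on simulated data. Scanner files were not used here, so background calls are unknown, and the number of arrays limits precision. The members and lists were chosen with earlier results of these data known. Genes named are the members, CTNNB1, MYC, called genes and the 3 smallest p of each related list. Named too are the 3 profiles nearest to each of the top 2 members, and EIF5A for the rows it shares with EIF5AL1. KRT18, which was not called, is named for its negative change among the epithelial markers. Brightness classes and the promoter search were added after seeing the data.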

Additional observations from a re-analysis of the deposited data

How the results depend on the processing

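ODC1 and CTNNB1 kept their direction in all 18 alternative settings and were past the threshold in 17, the exception being the unmoderated test, with an adjusted p of 0.104 for ODC1 and of 0.0660 for CTNNB1 (log2 change -0.77); with 1 array left out CTNNB1 changed by -0.84 to -0.71. Members called lower numbered 2 when the dimmest 25% or 50% of genes were left out, with a trended and robust variance and at a threshold of 0.10, 0 without moderation, and 1 to 2 with 1 array left out. Members called higher numbered 1 with the 50% filter and with the trended variance, both times SAT1. Related genes called lower numbered 2 with the 25% filter and at 0.10, 6 with the 50% filter, 4 with the trended variance, and 0 after quantile normalization, cyclic loess, without moderation, over every row, or with any 1 array left out. Of the 9208 genes left by the 50% filter 645 rose and 1216 fell. Of the 13812 left by the 25% filter 556 rose and 927 fell. Both filters also left out some of the 29 related genes, so the counts of related genes there are out of fewer. Of all 18417 genes 586 rose and 1036 fell with the trended variance, 75 and 36 without moderation, and 660 and 1008 at 0.10. After quantile normalization 458 rose and 447 fell, and after cyclic loess 488 rose and 379 fell. When every row was tested, 138 of these genes rose and 57 fell. With 1 array left out 183 to 364 rose and 95 to 513 fell. Rises were 43.9% of calls as deposited and 56.3% after cyclic loess. Deviations of same-numbered arrays correlated at -0.02, 0.33 and 0.22, and those of other pairs at -0.29 to 0.08. For number 1 the correlation was not above 0.1, so the labels' numbers were not taken as pairs, though pairing stays possible. The deviations are from each group's own mean, so these correlations are not independent and cannot settle whether arrays were paired. With the replicate block, 1 member fell (ODC1, adjusted p = 0.0127), and 470 genes rose and 707 fell. Whether dim genes hold undetected changes was not tested, since background calls are unknown.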
